A study of Arabidopsis thaliana with 9 samples.

Results

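The XTH genes of Arabidopsis thaliana encode xyloglucan endotransglucosylase/hydrolases, and the family was followed in seedlings labelled as hd2b hd2c double mutants and in the wild type. Its 33 members, XTH1 to XTH33, were taken by locus identifier from a table of 33278 loci. Membership goes by family name and uses no measured value. The family itself was selected on the FPKM difference between the genotypes in these same libraries, which was already known. Counts over the family are therefore a description, and nothing is read from them about the family as such.

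RNA-seq was done on whole seedlings aged 6 days, with 2 libraries labelled hd2b hd2c double mutant and 2 libraries of the wild type Columbia-0 (Col). HD2B and HD2C encode plant-specific histone deacetylases. The labels give neither the alleles nor whether the 2 libraries of a genotype are separate cultures, so each p-value rests on a library-to-library spread that may be technical. The series has 9 samples, and the other 5, from leaves at 2 weeks, were not analysed here.

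Xyloglucan is a hemicellulose that coats and tethers cellulose in the primary wall of most dicot tissues. XTH enzymes cut a xyloglucan chain and either join the new end to another chain, which remodels or strengthens the wall, or pass it to water, which shortens the chain. The family is usually sorted by sequence into group I, group II, and the groups IIIA and IIIB. Members are known for expression in separate organs and for responses to touch, brassinosteroid, auxin and shade.

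HD2B (AT5G22650) had 24.2 and 24.3 FPKM (fragments per kilobase, scaled to the mapped total) in the labelled mutants, against 138 and 191 FPKM in Col. It was far lower in both labelled mutant libraries (log2 −2.69, SE 0.17, limma adjusted p = 3.62e-04). For HD2C (AT5G03740) the values were 74.7 and 55.8 FPKM in the labelled mutants, against 56.1 and 63.9 FPKM in Col. The HD2C transcript was thus not lower, and the libraries are called labelled mutants for that reason. Of the other 2 genes of this deacetylase family, HD2D had 75.9 and 86.3 FPKM in the labelled mutants, against 45.8 and 50.9 FPKM in Col, and passed (log2 0.73, adjusted p = 0.0476). Its call was lost without Col library 1 (adjusted p = 0.232), without Col library 2 (0.0525) and without labelled mutant library 2 (0.0652). It was also lost with no filter (0.182), at a pseudocount of 0.1 (0.0514) and after correction for gene span (0.0696). HD2A had 95.3 and 124 FPKM in the labelled mutants, against 48.9 and 69.9 FPKM in Col (log2 0.88, adjusted p = 0.109, and 0.00745 without Col library 2), and passed with columns rescaled to one sum (0.0180) or without rRNA loci (0.0174). FPKM columns summed to 956002 and 1105981 in labelled mutant libraries 1 and 2, against 988524 and 992451 in Col libraries 1 and 2, so labelled mutant library 2 had the largest sum.

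In these seedlings 28 of the 33 members passed the filter on low values (at least 1 FPKM in at least 2 libraries), and 25 of them reached 1 FPKM in all 4 libraries. Each of the 28 reached 1 FPKM in at least 1 library of each genotype. XTH11 and XTH26 reached it in both labelled mutant libraries and, within Col, in library 2 only. These members thus met the filter on the labelled mutants alone and would not have met it on Col alone. XTH1 (AT4G13080), XTH2 (AT4G13090) and XTH3 (AT3G25050) were listed at 0 in every library. XTH3 is known for an enzyme that can also graft cellulose. XTH33 (AT1G10550), whose product is predicted to be anchored in the plasma membrane, had 0.689 and 0.311 FPKM in the labelled mutants, against 0.265 and 0.217 FPKM in Col. XTH29 (AT4G18990) had 0.163 and 0.248 FPKM in the labelled mutants, against 0.336 and 0.467 FPKM in Col. It was the only member whose 2 labelled mutant values both lay below both Col values. Both genes were under 1 FPKM throughout and were not tested.

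**Figure D1:**
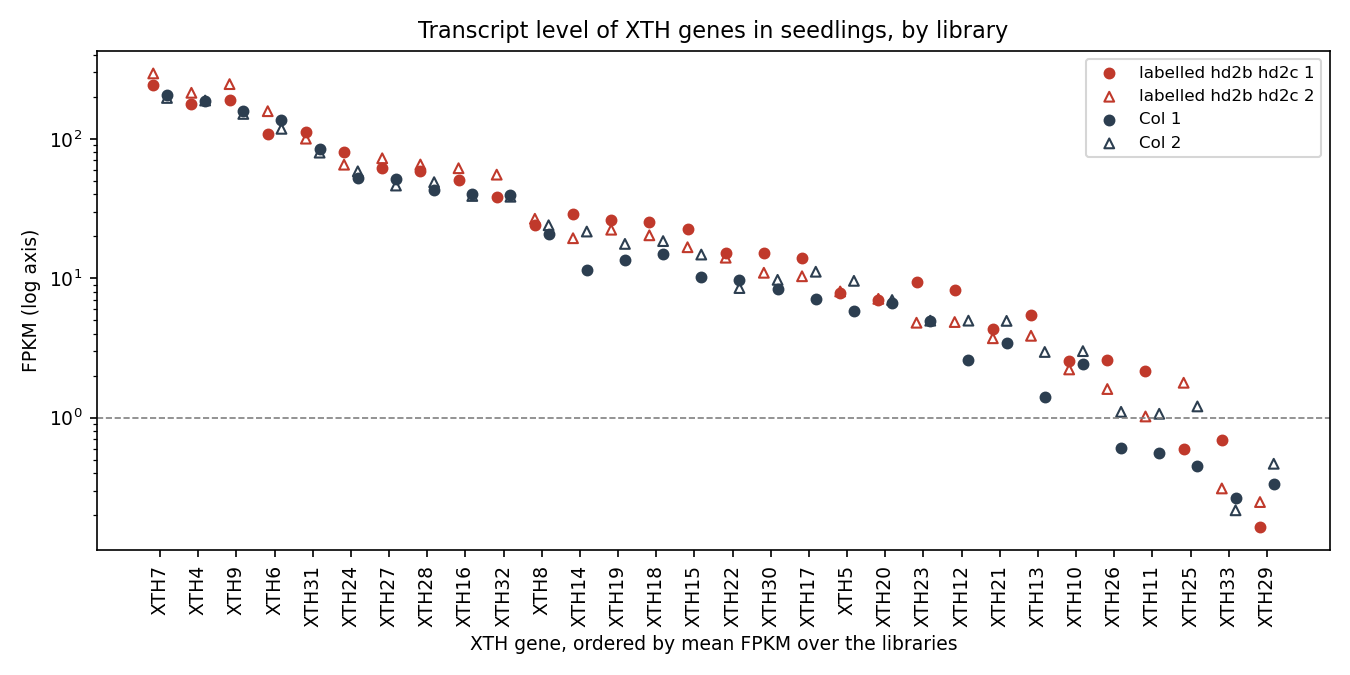
FPKM of the 30 XTH genes above 0 (log axis), ordered by mean level, with labelled mutant libraries in red at the left and Col libraries in dark blue at the right of each gene (filled circles for libraries numbered 1, open triangles for those numbered 2). Levels ran from XTH7 at 196 to 294 FPKM down to XTH29 and XTH33 under the dashed line at 1 FPKM.

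A few members carried most of the family's transcript. FPKM is scaled to length, so levels can be set side by side between genes. XTH7, XTH4, XTH9, XTH6 and XTH31 had the 5 highest means and together made up 61.8% and 66.9% of the summed family FPKM in the labelled mutants, against 68.6% and 64.8% in Col. XTH7 averaged 234 FPKM over the 4 libraries and lay at percentile 96.8 of all tested loci. XTH25, the lowest tested member, averaged 1.01 FPKM and lay at percentile 1.0. In the order of the levels, 26 of the 27 pairs of neighbouring tested members overlapped in their range over the 4 libraries. The exception was the step between XTH32 (38.4 to 55.3 FPKM) and XTH8 (20.8 to 26.7 FPKM).

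The summed family level was higher in both labelled mutant libraries than in either Col library. It came to 1340 and 1512 FPKM in the labelled mutants, against 1124 and 1130 FPKM in Col, a ratio of means of 1.27. Group I, with 11 members, summed to 754 and 950 FPKM in the labelled mutants, against 716 and 690 FPKM in Col. Group II, with 15 members, summed to 299.8 and 257 FPKM in the labelled mutants, against 180 and 216 FPKM in Col. Groups IIIA and IIIB together, with 7 members, summed to 286 and 305 FPKM in the labelled mutants, against 228 and 223 FPKM in Col. The labelled mutants did not overlap with Col in any of these sums. Labelled mutant library 2 was the higher of its genotype for group I and labelled mutant library 1 for group II.

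**Figure D2:**
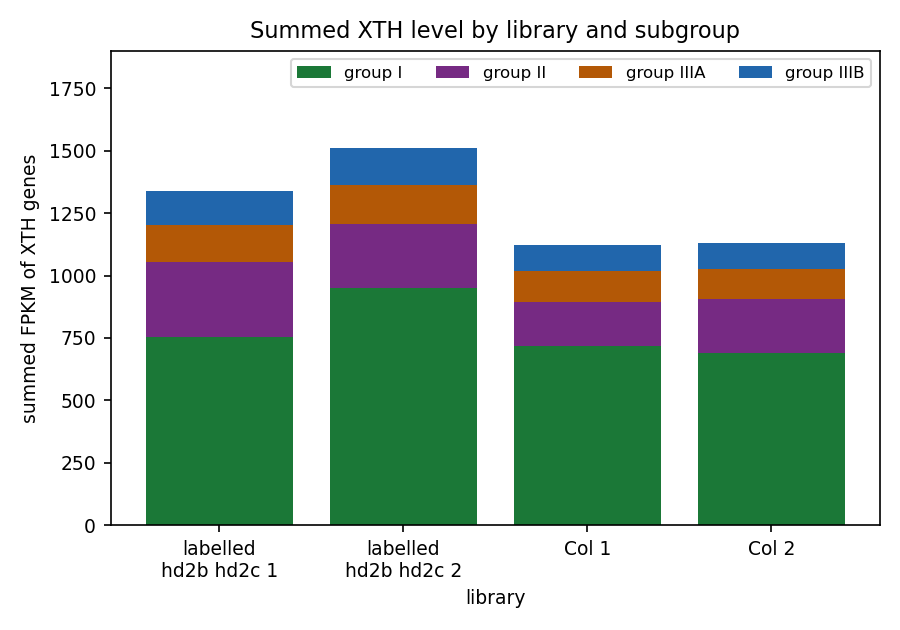
Summed FPKM of all XTH genes in each library, stacked by subgroup (group I at the bottom, then II, IIIA and IIIB). The labelled mutant bars reach 1340 and 1512 FPKM and the Col bars 1124 and 1130 FPKM.

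No XTH gene passed the threshold of the limma fit over all tested loci, where 1.16% of loci were called, 0.608% higher and 0.552% lower. The smallest adjusted p was 0.0735, for XTH22. At an unadjusted p under 0.05 there were 14 members, all of them higher in the labelled mutants, beside 17.2% of all tested loci in either direction and 9.22% on the higher side. The 14 members were XTH7, XTH9, XTH13, XTH15, XTH16, XTH18, XTH19, XTH22, XTH24, XTH26, XTH27, XTH28, XTH30 and XTH31. Their 95% intervals lay above 0, which is the same criterion by construction. Of the 28 tested members, 26 had a log2 difference above 0, beside 50.7% of all tested loci. The median log2 difference was 0.42, beside 0.0041 over all tested loci. Genotypes did not overlap in 16 members, all higher in the labelled mutants, beside 24.2% of all tested loci higher and 25.1% lower.

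**Figure D3:**
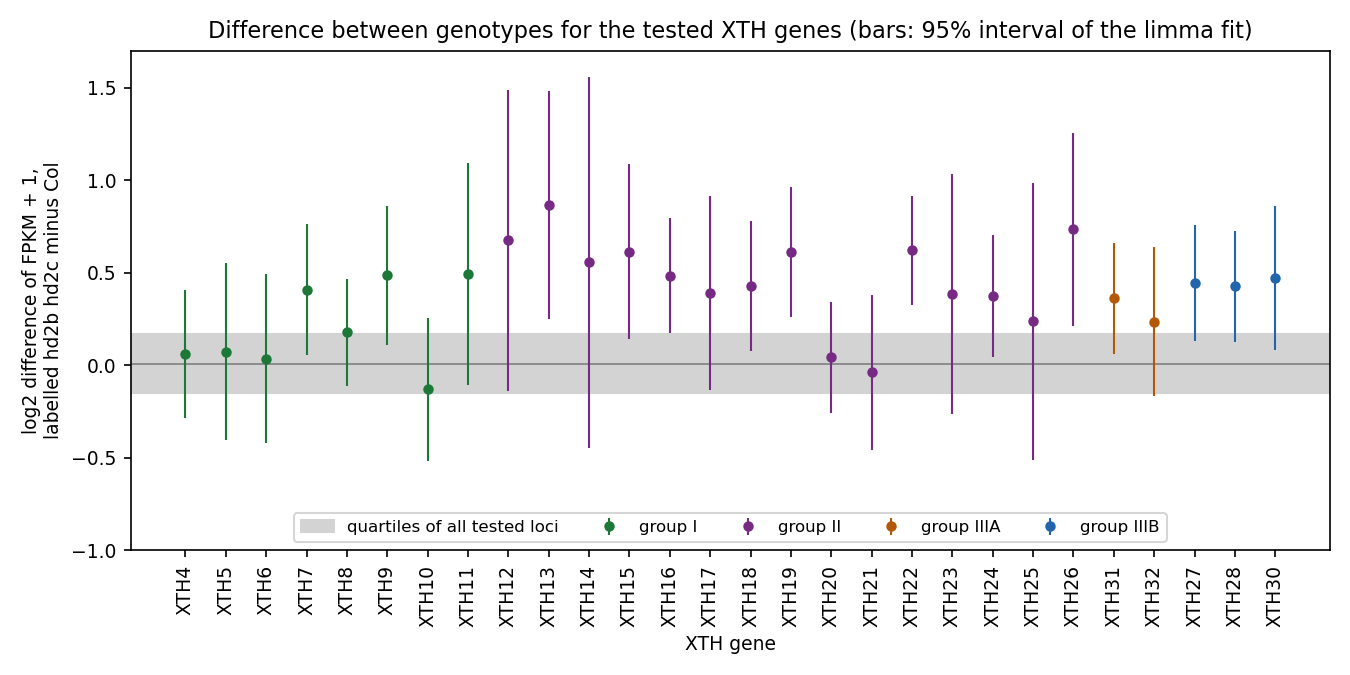
Log2 difference of FPKM + 1, labelled hd2b hd2c minus Col, for the 28 tested XTH genes by subgroup, with bars for the 95% interval of the limma fit and a grey band for the quartiles of all tested loci (−0.15 and 0.17). All but XTH10 and XTH21 lie above 0, and the intervals of 14 genes exclude 0.

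The 4 most abundant members, XTH4, XTH6, XTH7 and XTH9, are all of group I. The labelled mutants lay above Col without overlap in XTH7 and XTH9, and the genotypes overlapped in XTH4 and XTH6. XTH7 (AT4G37800) had 242 and 294 FPKM in the labelled mutants, against 206 and 196 FPKM in Col (log2 0.41, SE 0.15, adjusted p = 0.240). XTH9 (AT4G03210), expressed in shoot apices and in developing xylem, had 191 and 247 FPKM in the labelled mutants, against 159 and 151 FPKM in Col (log2 0.49, SE 0.16, adjusted p = 0.199). In both genes library 2 was the higher of the labelled mutants. XTH9 passed without labelled mutant library 1 (log2 0.67, adjusted p = 0.0449), whereas without labelled mutant library 2 its log2 difference was 0.30 (adjusted p = 0.275).

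XTH4 (AT2G06850), which acts with XTH9 in xylem development, had 177 and 214 FPKM in the labelled mutants, against 185 and 188 FPKM in Col. XTH6 (AT5G65730) had 107 and 158 FPKM in the labelled mutants, against 137 and 118 FPKM in Col. In both genes the 2 labelled mutant libraries lay on either side of Col. Their 95% intervals ran from −0.29 to 0.40 for XTH4 and from −0.42 to 0.49 for XTH6. A difference of the size seen in XTH7 (0.41) lies just above the upper end of the first and within the second. The sign of both differences turned with quantile normalization (log2 −0.062 each).

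The less abundant members of group I were spread on both sides. XTH8 (AT1G11545) had 24.1 and 26.7 FPKM in the labelled mutants, against 20.8 and 24.0 FPKM in Col, a narrow separation (adjusted p = 0.522). XTH5 (AT5G13870) had 7.85 and 8.03 FPKM in the labelled mutants, between the Col values of 5.84 and 9.57 FPKM. XTH10 (AT2G14620) had 2.53 and 2.22 FPKM in the labelled mutants, against 2.41 and 3.0 FPKM in Col. Its log2 difference of −0.13 was the lowest of the tested members (adjusted p = 0.740). XTH11 (AT3G48580) had 2.16 and 1.02 FPKM in the labelled mutants, against 0.559 and 1.07 FPKM in Col, overlapping through the libraries numbered 2.

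The 4 largest log2 differences were those of XTH13, XTH26, XTH12 and XTH22, all of group II. Of these, XTH26 met the filter on low values through the labelled mutants and would not have met it on Col alone. XTH22 (AT5G57560) is the touch gene TCH4, which mechanical stimuli, brassinosteroid, auxin and cold are known to induce. It had 15.1 and 14 FPKM in the labelled mutants, against 9.77 and 8.50 FPKM in Col, a ratio of means of 1.59 (log2 0.62, 95% interval 0.32 to 0.92, SE 0.13, adjusted p = 0.0735). The gap between genotypes was wide against the gap within either one, and the difference was 0.58 for the libraries numbered 1 and 0.66 for those numbered 2.

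XTH19 (AT4G30290), which with XTH20 is known from the healing of cut stems and from roots, had 26.2 and 22.3 FPKM in the labelled mutants, against 13.6 and 17.6 FPKM in Col. The log2 difference was 0.61 (SE 0.15, adjusted p = 0.117), and the call was made without Col library 2 (log2 0.79, adjusted p = 0.0207) and not without Col library 1 (log2 0.43, adjusted p = 0.458). XTH20 (AT5G48070) had 7.00 and 7.11 FPKM in the labelled mutants, against 6.67 and 6.98 FPKM in Col. It did not overlap between genotypes, yet its log2 difference was 0.042 (95% interval −0.26 to 0.34), and it turned to −0.0060 with columns rescaled without rRNA loci.

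XTH15 (XTR7, AT4G14130), a shade-induced gene, had 22.5 and 16.7 FPKM in the labelled mutants, against 10.3 and 14.8 FPKM in Col (log2 0.61, SE 0.20, adjusted p = 0.202). Its log2 difference was 0.86 without Col library 2, where it passed (adjusted p = 0.0215), and 0.37 without Col library 1 (adjusted p = 0.611). XTH16 (AT3G23730) had 50.5 and 61.5 FPKM in the labelled mutants, against 40.2 and 38.9 FPKM in Col (log2 0.48, SE 0.13, adjusted p = 0.145). XTH24 (MERI5, AT4G30270), first cloned from meristematic tissue, had 79.9 and 65.2 FPKM in the labelled mutants, against 52.5 and 58.4 FPKM in Col (log2 0.38, adjusted p = 0.245). In these 3 genes the genotypes did not overlap. XTH15 and XTH24 were highest in labelled mutant library 1 and XTH16 in labelled mutant library 2.

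XTH23 (XTR6, AT4G25810) had 9.42 and 4.79 FPKM in the labelled mutants, against 4.94 and 4.96 FPKM in Col. Its difference rested on labelled mutant library 1, and without that library it was −0.039. XTH25 (AT5G57550) had 0.594 and 1.78 FPKM in the labelled mutants, against 0.449 and 1.20 FPKM in Col. In XTH25 the 2 libraries numbered 2 were the high ones in either genotype.

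The members known for expression in the root (XTH12, XTH13, XTH14, XTH17, XTH18, XTH19, XTH20, XTH21 and XTH26, a set drawn up from general knowledge after the values were seen) were ordered alike across the libraries. All 9 were lowest in Col library 1, and 7 were highest in labelled mutant library 1. XTH14 (AT4G25820), found in root hairs and the root elongation zone, had 28.8 and 19.4 FPKM in the labelled mutants, against 11.4 and 21.6 FPKM in Col (log2 0.56, SE 0.37, adjusted p = 0.525). Its genotypes overlapped, and it passed without Col library 2 (log2 0.99, adjusted p = 0.0291), whereas without Col library 1 its log2 difference was 0.12 (adjusted p = 0.942). XTH26 (AT4G28850), also of root hairs, had 2.58 and 1.60 FPKM in the labelled mutants, against 0.605 and 1.10 FPKM in Col (log2 0.73, SE 0.23, adjusted p = 0.171).

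XTH12 and XTH13 are close relatives in the same cluster of the genome. XTH12 (AT5G57530) had 8.29 and 4.85 FPKM in the labelled mutants, against 2.57 and 4.96 FPKM in Col (log2 0.68, SE 0.33, adjusted p = 0.365). Its log2 difference was 0.31 without Col library 1 and 1.04 without Col library 2, and passed in neither case. XTH13 (AT5G57540) had 5.49 and 3.86 FPKM in the labelled mutants, against 1.41 and 2.96 FPKM in Col. Its log2 difference of 0.86 (SE 0.26, adjusted p = 0.178) was the largest among the tested members, and the call was made without Col library 2 (log2 1.22, adjusted p = 0.00377). Without Col library 1 it was 0.51 (adjusted p = 0.50), below XTH22 at 0.71 and XTH26 at 0.54. XTH12 overlapped between genotypes and XTH13 did not.

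XTH17 (AT1G65310), a close relative of XTH18, had 13.9 and 10.3 FPKM in the labelled mutants, against 7.09 and 11.1 FPKM in Col. XTH18 (AT4G30280), which acts in root cell elongation, had 25.3 and 20.3 FPKM in the labelled mutants, against 14.9 and 18.5 FPKM in Col (log2 0.43, adjusted p = 0.219). XTH21 (AT2G18800), another root growth gene, had 4.29 and 3.71 FPKM in the labelled mutants, between the Col values of 3.43 and 4.94 FPKM. Of these 3 genes only XTH18 did not overlap between genotypes.

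Over the 9 root-expressed members, the median log2 difference was 0.90 from the libraries numbered 1 and 0.024 from those numbered 2. Over the other 19 tested members it was 0.32 and 0.33. The root-expressed set was drawn up after the values were seen, so this contrast is a description only and was not tested. Root marker genes from a list of 12 (root hair and endodermis genes, SCR and PLT1) had medians of 0.76 and −0.076. Of these 12 markers, 10 were highest in labelled mutant library 1 and 10 were lowest in Col library 1. Their summed level was 131 and 90.9 FPKM in the labelled mutants, against 68.3 and 93.5 FPKM in Col, and none was at 0 in all libraries. The markers of smallest p were CASP4 of the Casparian strip (6.01 and 2.58 FPKM in the labelled mutants, against 1.5 and 1.99 FPKM in Col, adjusted p = 0.251), PRP3 (adjusted p = 0.299) and EXPA18 (adjusted p = 0.334). None of the 12 passed, and 10 lay above 0 (median 0.36). Values with a library left out are given only for the 3 markers of smallest p, a choice made on these same data. The log2 difference of PRP3 ran from 0.34 without Col library 1 to 0.92 without Col library 2. That of EXPA18 ran from 0.17 to 0.66 in the same 2 settings. For CASP4 it ran from 0.39 without labelled mutant library 1 to 1.36 without labelled mutant library 2. The part of root RNA in the XTH differences was not tested. In whole seedlings, more root cells and more RNA per root cell cannot be told apart.

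Shoot markers lay on the other side of 0 between the same libraries. All 10 photosynthesis genes of the list were lowest in labelled mutant library 1. They summed to 45565 and 60626 FPKM in the labelled mutants, against 61972 and 57647 FPKM in Col, with a median log2 difference of −0.19 (−0.47 for libraries numbered 1 and −0.011 for those numbered 2). None passed, and 9 lay below 0. The smallest p values belonged to the antenna gene LHCB2.3 (log2 −0.60, adjusted p = 0.269), the photosystem I gene PSAD2 (log2 −0.44, adjusted p = 0.296) and LHCA4 (AT3G47470, listed as CAB4, log2 −0.32, adjusted p = 0.513). Under other scalings some of these passed on the lower side: PSAD2 with quantile normalization (adjusted p = 0.0471), after leaving rRNA loci out of the scaling (0.0294) and with columns rescaled to one sum (0.0316), and LHCB2.3 with the last 2 of these (0.0372 and 0.0400). Both also passed without labelled mutant library 2 (adjusted p = 0.0142 for LHCB2.3 and 0.0488 for PSAD2). XTH4, XTH6 and XTH32 likewise had a lower value in labelled mutant library 1 than in Col library 1. Seed storage and oil body genes were higher in the labelled mutants in all 9 listed cases (median 3.82), with sums of 173 and 343 FPKM in the labelled mutants, against 4.89 and 27.0 FPKM in Col. Of these 9 genes, SESA1, SESA2 and SESA4 passed (adjusted p = 0.00341, 9.12e-05 and 0.0410). The SESA4 call was lost without Col library 1 (adjusted p = 0.632), without Col library 2 (0.489), with no filter (0.10) and at a pseudocount of 5 (0.193). The SESA1 call was lost without Col library 1 (0.177), without Col library 2 (0.102) and at a pseudocount of 5 (0.0678), and the SESA2 call at a pseudocount of 0.1 (0.0760). Their part in the XTH values was not tested.

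**Figure D4:**
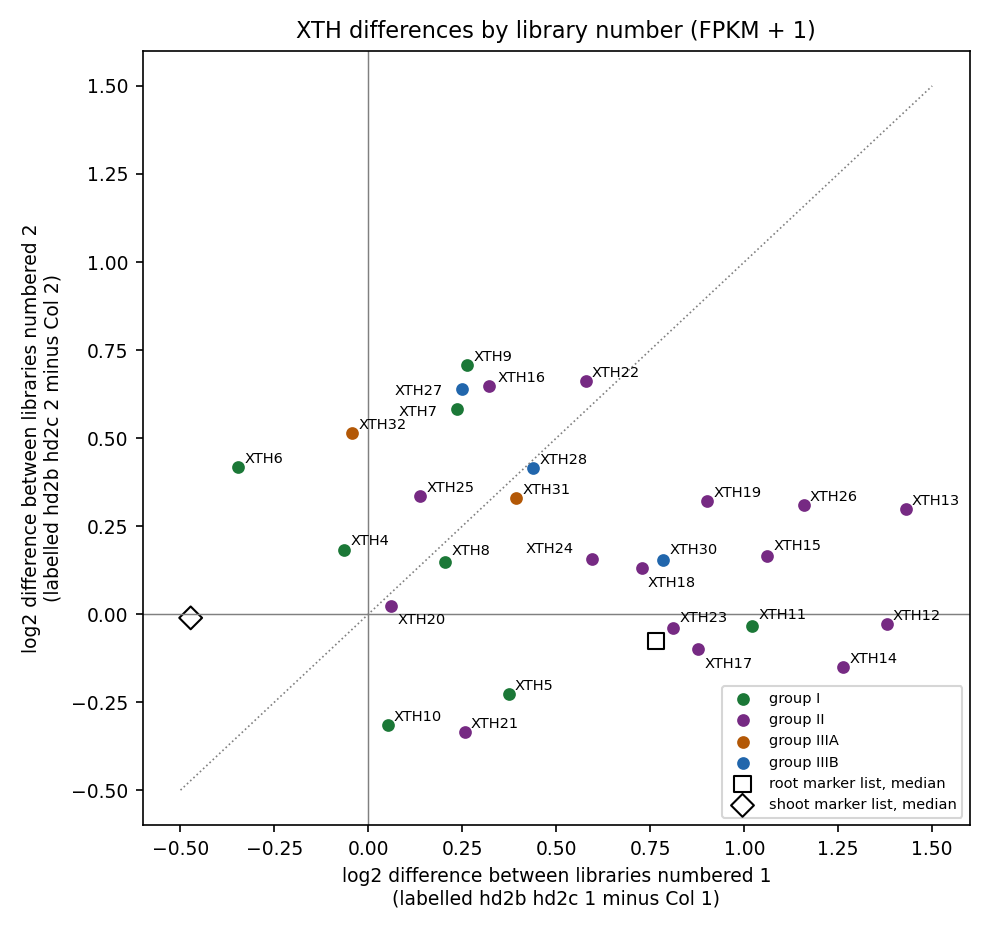
Log2 difference of FPKM + 1 between the libraries numbered 1 (horizontal axis) and those numbered 2 (vertical axis), labelled hd2b hd2c minus Col, for the 28 tested XTH genes, with the medians of the root (square) and shoot (diamond) marker lists and a dotted line of equality. Of the 28 genes, 19 lie below the dotted line, among them all root-expressed members, a set drawn up after the values were seen. The root marker median lies below it too, at 0.76 and −0.076. XTH7, XTH9, XTH16 and XTH27 are among the genes above the dotted line.

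In group III, 4 of the 5 tested members did not overlap between genotypes, all higher in the labelled mutants, beside 24.2% of all tested loci. XTH31 (AT3G44990), whose enzyme mainly hydrolyses xyloglucan, had 111 and 100.2 FPKM in the labelled mutants, against 84.3 and 79.5 FPKM in Col (log2 0.36, SE 0.13, adjusted p = 0.224). XTH32 (AT2G36870), the other member of group IIIA, had 38.5 and 55.3 FPKM in the labelled mutants, against 39.7 and 38.4 FPKM in Col, and overlapped. XTH27 (EXGT-A3, AT2G01850), known from developing tracheary elements of leaves, had 61.6 and 72.5 FPKM in the labelled mutants, against 51.7 and 46.2 FPKM in Col (log2 0.44, SE 0.14, adjusted p = 0.171).

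XTH28 (AT1G14720), known for the growth of stamen filaments, had 58.8 and 65.4 FPKM in the labelled mutants, against 43.1 and 48.8 FPKM in Col. Its log2 difference of 0.43 (95% interval 0.13 to 0.72, adjusted p = 0.170) came from 0.44 between libraries numbered 1 and 0.41 between those numbered 2. XTH30 (AT1G32170) had 15.2 and 10.9 FPKM in the labelled mutants, against 8.38 and 9.73 FPKM in Col (log2 0.47, SE 0.17, adjusted p = 0.223). XTH27, XTH28, XTH30 and XTH31 were the 4 without overlap, and all 5 tested members of group III lay above 0 (median 0.43). For group I the median was 0.12 with 7 of 8 above 0, and for group II it was 0.48 with 14 of 15.

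Genotypes were separated by more than the gap within either genotype in 14 members, beside 36.7% of all tested loci. These 14 are the same members that had an unadjusted p under 0.05. Leaving out a single library moved the log2 difference by more than 1.5 times in 21 of the 28 tested members. The other 7 were XTH16, XTH19, XTH22, XTH26, XTH27, XTH28 and XTH31. Differences near 0 pass such a fold easily, and the share over all tested loci is not given. Nothing is therefore read from this count about the family. XTH22, XTH28 and XTH31 kept similar differences for both library numbers, whereas XTH13, XTH15, XTH18, XTH19, XTH24, XTH26 and XTH30 had the larger difference between libraries numbered 1, and XTH7, XTH9, XTH16 and XTH27 between those numbered 2. Over all 28 tested members, 14 were highest in labelled mutant library 1 and 11 in labelled mutant library 2, beside 19.7% and 33.7% of all tested loci. None was highest in Col library 1, beside 18.3%, and 17 were lowest there, beside 32.3%.

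Several members sit side by side in the genome, and neighbours differed in level. XTH12, XTH13, XTH25 and XTH22 form a cluster in this order, with 1 other locus between XTH12 and XTH13. Their means over the 4 libraries were 5.17 FPKM for XTH12, 3.43 FPKM for XTH13, 1.01 FPKM for XTH25 and 11.8 FPKM for XTH22. In this cluster the labelled mutants stood apart from Col in XTH13 and XTH22 and not in XTH12 and XTH25. XTH24, XTH18 and XTH19 are adjacent, with means of 64.0, 19.7 and 19.9 FPKM, and none of the 3 overlapped between genotypes. Over all tested loci, 24.2% lay higher without overlap, and whether neighbours differ together was not tested. XTH23 and XTH14 are adjacent, with means of 6.03 and 20.3 FPKM, and both overlapped. XTH1 and XTH2 are adjacent and were both listed at 0. How reads shared between close copies were counted is not given, so the split of level between relatives such as XTH12 and XTH13 or XTH18 and XTH19 is uncertain.

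Genes that make xyloglucan lay close to 0. The list of 16 includes the CSLC glucan synthases, the XXT xylosyltransferases and enzymes that add galactose, fucose and acetyl groups. All 16 were tested, none passed, none had an unadjusted p under 0.05, and 8 lay above 0 and 8 below (median 6.56e-04). The log2 differences ran from −0.17 to 0.13. The smallest p values belonged to CSLC5 (17.4 and 19.2 FPKM in the labelled mutants, against 20.5 and 20.8 FPKM in Col, adjusted p = 0.494), XLT2 (adjusted p = 0.566) and CSLC6 (adjusted p = 0.713). The difference between the 2 lists was not tested.

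Of the 3 exoglycosidases that trim xyloglucan side chains, the alpha-xylosidase gene XYL1 had 134 and 148 FPKM in the labelled mutants, against 129 and 129 FPKM in Col (log2 0.12, adjusted p = 0.696). The alpha-fucosidase gene AXY8 averaged 32.1 ± 1.78 FPKM in the labelled mutants and 32.2 ± 0.958 FPKM in Col (SD, n = 2 each, limma adjusted p = 0.993). The beta-galactosidase gene BGAL10 averaged 8.32 ± 1.20 FPKM in the labelled mutants and 9.16 ± 0.393 FPKM in Col (SD, n = 2 each, limma adjusted p = 0.695). XYL1 was above Col in both labelled mutant libraries, AXY8 and BGAL10 overlapped, and none of the 3 passed. The list median was −0.0032, with 1 of 3 above 0.

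**Figure D5:**
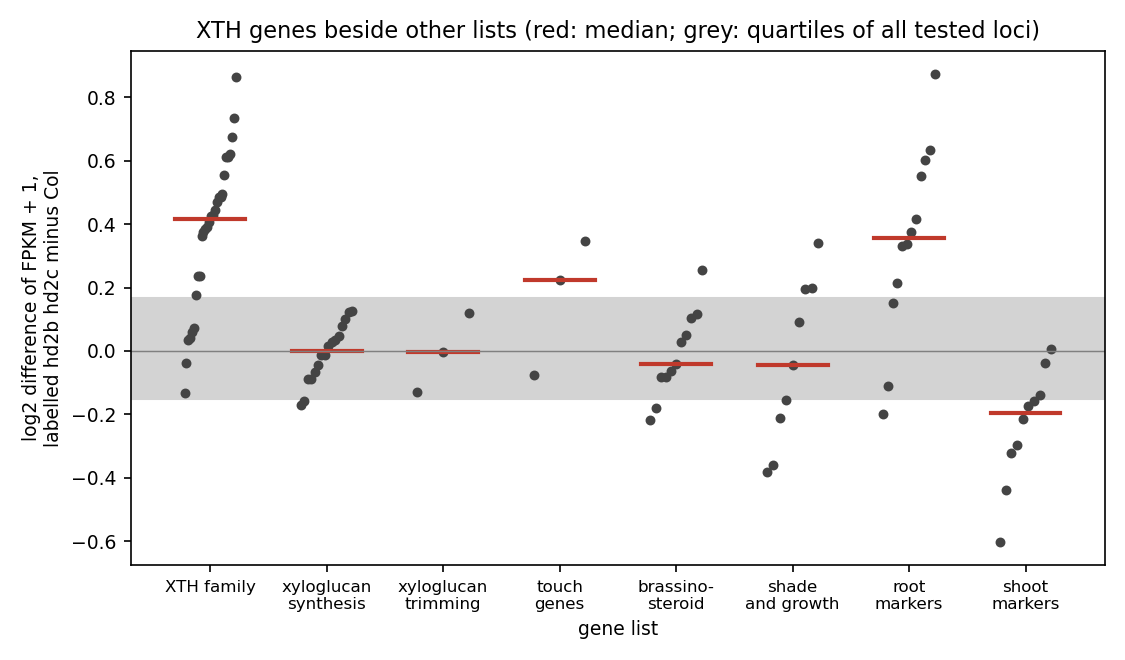
Log2 difference of FPKM + 1, labelled hd2b hd2c minus Col, for each tested gene of the XTH family and of 7 other lists (points, sorted within a list), with the list median in red and the quartiles of all tested loci in grey. The XTH median stands at 0.42, the root marker median at 0.36, and the xyloglucan synthesis and trimming medians near 0.

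Genes of the touch, brassinosteroid and shade responses, in which XTH genes are known to take part, gave no call either. Among the other touch genes, CAM2 (TCH1, calmodulin) had 114 and 121 FPKM in the labelled mutants, against 88.7 and 95.8 FPKM in Col (log2 0.35, SE 0.13, adjusted p = 0.235). CML24 (TCH2) had 43.6 and 52.6 FPKM in the labelled mutants, against 43.8 and 38.2 FPKM in Col (adjusted p = 0.460). CML12 (TCH3) had 19.6 and 20.0 FPKM in the labelled mutants, against 17.2 and 25.3 FPKM in Col (adjusted p = 0.872). Only CAM2 was separated between genotypes in the way of XTH22, and 2 of the 3 lay above 0 (median 0.22).

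In the brassinosteroid list 11 of 12 genes were tested, 5 lay above 0, and the median was −0.041. BZR1, a transcription factor of the pathway, had 16.4 and 18.6 FPKM in the labelled mutants, against 14 and 14.9 FPKM in Col (log2 0.26, adjusted p = 0.334). The synthesis genes BR6OX2 (log2 −0.22, adjusted p = 0.374) and DWF4 (log2 −0.18, adjusted p = 0.503) had the next smallest p values. In the list of shade and growth genes 9 of 10 were tested, 4 lay above 0, and the median was −0.043. PIF4, a light-regulated transcription factor that promotes growth, had 36.4 and 38.5 FPKM in the labelled mutants, against 49.9 and 48.3 FPKM in Col (log2 −0.38, SE 0.12, adjusted p = 0.170). PIF7 had 13.2 and 12.5 FPKM in the labelled mutants, against 16.6 and 16.9 FPKM in Col (log2 −0.36, adjusted p = 0.181). HFR1, which restrains PIF factors, had 17.0 and 19.0 FPKM in the labelled mutants, against 13.6 and 14.4 FPKM in Col (log2 0.34, adjusted p = 0.216). The third PIF gene of the list, PIF5, named after its values were seen, had 45.5 and 45.2 FPKM in the labelled mutants, against 50.8 and 50.3 FPKM in Col (log2 −0.15, adjusted p = 0.542). Of the tested genes of this list, 3 lay lower without overlap, the PIF genes, and 3 lay higher. These were HFR1, ATHB2 (log2 0.20, adjusted p = 0.478) and YUC8 (log2 0.20, adjusted p = 0.616). Over all tested loci, 25.1% lay lower and 24.2% higher without overlap.

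The members' genes are short, and in this table short genes tended to lie higher in the labelled mutants. The tenth of tested loci with the shortest span had a median log2 difference of 0.15 and the tenth with the longest span −0.17. The span of tested XTH members was 1645 bp at the median, beside 2356 bp over all tested loci. With the trend on span removed, the XTH median was 0.35 and 24 of 28 members lay above 0. Without labelled mutant library 1 it was 0.30, beside 0.039 over all tested loci, and without Col library 1 it was 0.30, beside −0.032.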

How the data were processed

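The 4 seedling RNA-seq libraries were analysed, and the other 5 samples of the series were not analysed here. The authors deposited FPKM per locus, per the file headers. TruSeq RNA libraries were used, per the labels' protocols. TopHat, Bowtie2, bedtools and the build TAIR10 are named without roles, per the submitters' processing notes. No source used here gives the FPKM program, gene models, use of strand or handling of shared reads. Depth is unknown. Low values of labelled mutant library 2 and Col library 2 often stood in ratios of small whole numbers after scaling. This was so for 1 of 6 library pairs (54.9% of 3370 loci within 0.2%, against 2.20% to 2.73% for the other pairs). What the libraries of this pair share was not tested.

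Log2(FPKM + 1) was fitted with limma 3.58.1 in R 4.3.3, with a mean-variance trend, robust empirical Bayes moderation and genotype as the only term. The 19917 of 33278 loci that reached 1 FPKM in 2 or more libraries were tested. Two-sided p-values were adjusted over all tested loci (Benjamini-Hochberg, threshold 0.05). Every adjusted p given in the text is from this fit unless another setting is named. Intervals cover 95% and come from the same fit. The fit was tested on simulated data with log2 changes of 1 and 2. It recovered 100% of them, and 10 of its 210 calls fell on unchanged loci. The XTH differences were smaller (at most 0.86), and recovery at such sizes was not tested. The 100% is also not a rate for the loci of these libraries. Of the 9 listed seed storage and oil body genes, 3 passed. Log2 differences above 2 did not pass for SESA3 (5.07, adjusted p = 0.263), CRU3 (4.31, 0.283) and CRA1 (3.16, 0.382), among others. The members and lists were chosen with earlier results of these data known. All 33 members are accounted for. Of the other lists, members past the threshold and the 3 of smallest p were named. PIF5, ATHB2, YUC8, SESA3, CRU3 and CRA1 were named in addition, after their values were seen. Symbols and gene order came from RefSeq (assembly TAIR10.1), to which 32820 loci (98.6%) and all 33 members matched. Its name is not that of the build in the notes, and positions are therefore left out. Alternatives covered scaling, filter, pseudocount, threshold, gene span, a replicate block and each library left out.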

Additional observations from a re-analysis of the deposited data

How the results depend on the processing

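The median log2 difference of the XTH members kept its sign under every alternative run, at 0.35 to 0.43 with other settings of scaling, filter, pseudocount, span and block, and at 0.30 to 0.46 with each library left out. XTH members called higher numbered 0 in the main analysis, 1 with a replicate block (XTH22, adjusted p = 0.0420) and 0 to 4 with a library left out (XTH13, XTH14, XTH15 and XTH19 without Col library 2, XTH9 without labelled mutant library 1). No member was called lower under any of them. A fit without a library leaves 1 library in its genotype, which is assumed to vary like the other genotype's. Log2 differences near 0 turned sign: XTH4 (−0.062) and XTH6 (−0.062) with quantile normalization, XTH6 (−0.020) and XTH20 (−0.0060) after leaving rRNA loci out of the column scaling, XTH6 (−0.019) and XTH20 (−0.0049) with columns rescaled to one sum, and XTH6 (−0.030), XTH20 (−0.042) and AXY8 (0.087) with the span trend removed, alone or with the replicate block. With a library left out, the ranges that crossed 0 were −0.24 to 0.39 for XTH5, −0.16 to 0.64 for XTH25, −0.24 to 0.31 for XTH6, −0.25 to 0.17 for XTH21, −0.058 to 0.052 for AXY8, −0.34 to 0.19 for CML12, −0.039 to 0.81 for XTH23, −0.10 to 0.31 for HD2C, −0.075 to 0.19 for XTH4, −0.020 to 0.49 for XTH32 and −0.26 to 0.0021 for BGAL10.

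All tested loci called higher and lower numbered 121 and 110. They numbered 332 and 284 after leaving rRNA loci out of the scaling, 320 and 274 with columns rescaled to one sum, 19 and 20 with no filter, 79 and 67 at a mean of at least 5 FPKM, 260 and 172 with the replicate block, 69 and 90 with the span trend removed, 60 and 70 with the span trend removed and the block, and 31 and 26 at a threshold of 0.01. With each library left out they ran from 147 to 364 and from 115 to 155. The cause of these changes was not tested. The labels do not say what the replicate numbers share, and deviations of same-numbered libraries correlated at 0.168 across tested loci, from 2 pairs only, so the block is given here alone. Without counts, depth sets no stated limit, and members under 1 FPKM were not tested.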
